A study of Mus musculus with 4 samples.

Results

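Mature neutrophils were examined in single-cell transcriptomes of ascites from female FVB mice that carried intraperitoneal Br-Luc tumors, a syngeneic mouse ovarian cancer model. They were chosen from UMI counts, where a UMI marks 1 captured RNA molecule, as barcodes with 400 to 4800 genes, at most 15% mitochondrial UMIs, at least 1% of UMIs from S100a8 and S100a9, fewer than 5 UMIs of Ngp, Camp and Ltf together, at least 2 UMIs of Retnlg, Il1r2 and Csf3r together, and no UMI of C1qa, C1qb, Cd79a or Cd3e. This rule gave 3555 cells of 133849 barcodes. Mice had received an LNA-modified control siRNA (labelled siCont) or an LNA-modified siRNA against Fxr1 (labelled siFXR1-LNA), both in nanoparticles, and ascites was taken 6 weeks after tumor cell injection. Each group had 2 libraries, and each library was made from the pooled ascites of several mice after lysis of red cells, so that the pool of mice, the library and its handling cannot be told apart. The tumor cells are 1 established line.

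Neutrophils are short-lived phagocytes that the bone marrow releases in large numbers. As they mature they make primary, then specific, then gelatinase granules in turn, stop transcribing the early granule proteins and gain the receptors for recruitment, among them Cxcr2 and the G-CSF receptor Csf3r. In tissues and tumors they can respond to interferons and to NF-kB signals, and they release chemokines such as Ccl3 and Cxcl2 that attract further leukocytes.

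The gene targeted by the siRNA was looked at first. Fxr1, on chromosome 3 from 34019943 to 34070322 of GRCm38, had 79.5 and 24.6 CPM (its share of all UMIs summed over the mature neutrophils of a library, scaled to a common total) in siCont replicates 1 and 2. Its level was 86.9 and 66.9 CPM in siFXR1-LNA replicates 1 and 2. The groups overlapped, and Fxr1 was not lower in the libraries labelled siFXR1-LNA (log2 difference 0.72, SE 0.49, adjusted p = 0.54, edgeR). A lower level of Fxr1 RNA was therefore not seen in the mature neutrophils of the labelled group, nor in macrophages (60.3, 60.0, 80.0 and 74.5 CPM). The siCont neutrophil values rest on few UMIs. Fxr1, Fxr2 and Fmr1 together had 104, 70.6, 146 and 130 CPM in neutrophils and 102, 91.0, 167 and 127 CPM in B cells, in the same order. The part of RNA floating free in the droplets was not tested. For epithelial cells, which were not examined here, the authors report lower Fxr1 expression with siFXR1-LNA. Whether a library carries the wrong label cannot be told from the neutrophil and macrophage counts, which bears on the direction of every difference below. The groups are called by their labels throughout.

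Mature neutrophils were rare in siCont replicate 1 and more frequent in the other libraries. There were 86 and 333 cells in siCont replicates 1 and 2, and 1796 and 1340 in siFXR1-LNA replicates 1 and 2. Set against the 32833, 10022, 54235 and 16679 cells that met the limits on genes and mitochondrial UMIs, this was 0.262% (95% exact binomial interval 0.210 to 0.323), 3.32% (2.98 to 3.69), 3.31% (3.16 to 3.47) and 8.03% (7.63 to 8.46). These intervals cover counting error only. The share of siFXR1-LNA replicate 1 lay just under that of siCont replicate 2, so the groups overlapped. The means were 1.79% ± 2.16 (SD, n = 2) and 5.67% ± 3.34 (SD, n = 2), and the exact permutation test gave p = 0.667 (two-sided). With 2 libraries against 2 this test cannot go below 0.333.

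The cells counted in the denominator differed too. Of these, 18548 of siCont replicate 1 held over 30% hemoglobin UMIs, against 2225, 5765 and 3149 in the others. Without such cells the mature neutrophils were 0.427%, 3.46%, 3.52% and 9.62%. Per 100 macrophages with at least 2 C1q UMIs, siCont held 0.908 and 15.8 mature neutrophils and siFXR1-LNA held 31.5 and 27.7. With at least 800 genes required of every cell, the share was 0.272%, 1.66%, 9.51% and 10.1%, and the groups did not overlap (exact permutation p = 0.333, n = 2 per group). This limit kept 37 and 128 mature neutrophils in siCont and 1552 and 1200 in siFXR1-LNA. It lay above the median genes of mature neutrophils in siCont (779.5 and 745) and below those in siFXR1-LNA (972 and 1039.5). Share and depth therefore cannot be told apart at this limit. Per macrophage the groups did not overlap either, and the gap between the 2 siCont libraries was larger than the gap between siCont replicate 2 and siFXR1-LNA replicate 2.

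**Figure D1:**
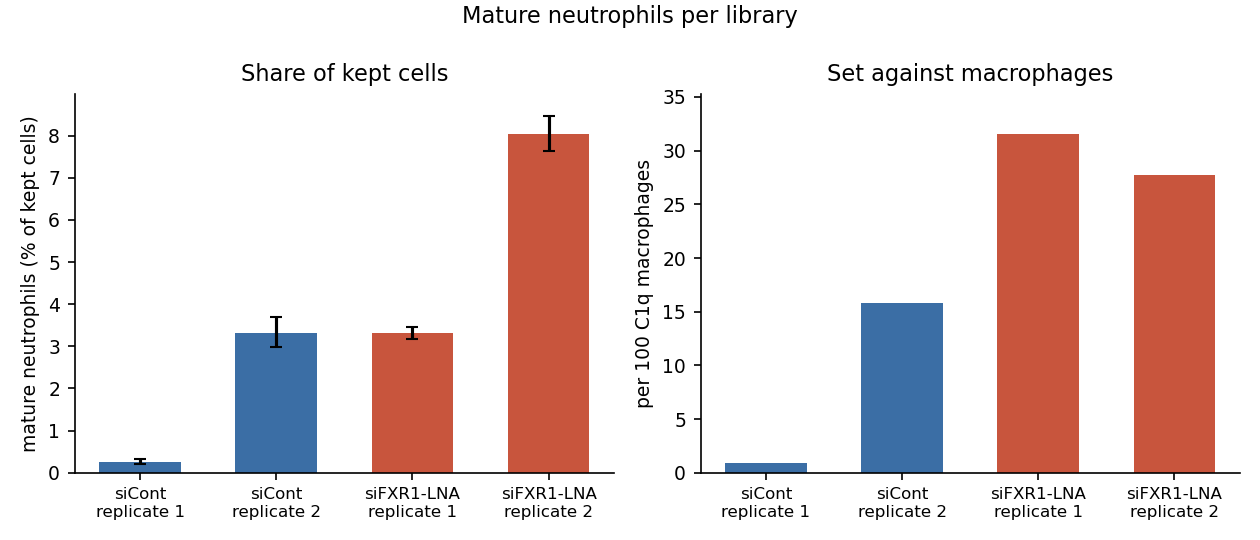
Mature neutrophils in each library, as a percentage of kept cells (left, bars with 95% exact binomial intervals) and per 100 C1q macrophages (right), blue for siCont and red for siFXR1-LNA. The siCont libraries were at 0.262% and 3.32% and the siFXR1-LNA libraries at 3.31% and 8.03%, and siCont replicate 1 was the lowest on both scales.

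The depth of a mature neutrophil was low and differed between the groups. Median UMIs per cell were 1531 and 1527 in siCont and 1947 and 2109 in siFXR1-LNA, and median genes were 779.5, 745, 972 and 1039.5. With each cell thinned to 500 UMIs, the median was 318.5 and 320 genes in siCont and 329 and 332 in siFXR1-LNA. The groups did not overlap, with p = 0.333 by the exact permutation test (n = 2 per group), the smallest it can give. Summed over cells, siCont rested on 163619 and 651565 UMIs and siFXR1-LNA on 3877721 and 3151936, so values of siCont replicate 1 carry the largest counting error. The siCont levels of Ccl3, Egr1, Aoah, Tnfaip3, Ccrl2 and Nr4a1 given below rest on few UMIs, so the size of their rises is uncertain. Hemoglobin took 19.3% and 19.0% of the summed UMIs of mature neutrophils in siCont and 6.90% and 3.53% in siFXR1-LNA. In B cells (barcodes with at least 2 Cd79a UMIs) of the same libraries it took 15.2%, 15.6%, 7.46% and 3.20%. The median mature neutrophil held far less, 2.54% and 2.22% in siCont and 2.99% and 0.467% in siFXR1-LNA, and these medians overlapped between the groups.

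The edges of the rule were not sharp. There were 256 members with exactly 2 UMIs of Retnlg, Il1r2 and Csf3r, and 252 barcodes with 1 UMI that met every other condition. Another 289 members had 1.0 to 1.2% of S100a8 and S100a9, next to 274 barcodes with 0.8 to 1.0%. The condition on C1qa, C1qb, Cd79a and Cd3e turned away 98, 158, 861 and 1669 barcodes, of which 1758 in all held only 1 such UMI. Of the members, 461 had a barcode that also occurred in another library, and 5 barcodes were members in 2 libraries. No doublet caller was run.

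The markers of mature neutrophils were present in every library. Retnlg, which encodes a resistin-like secreted protein, had 3881 and 12482 CPM in siCont and 6731 and 7112 in siFXR1-LNA. The decoy interleukin-1 receptor Il1r2 had 1418, 1961, 1436 and 2190 CPM in the same order. Both are genes of the rule and are given without a test. Csf3r, also of the rule, had 715 and 1662 CPM in siCont and 336 and 454 in siFXR1-LNA. The protease Asprv1 and the stefin Stfa2l1 were not used to choose the cells. Asprv1 had 73.3 and 187 CPM in siCont and 256 and 518 CPM in siFXR1-LNA, with a log2 difference of 1.30 (SE 0.55, adjusted p = 0.29, edgeR). Stfa2l1 had 452, 939, 1018 and 1574 CPM (log2 difference 0.70, SE 0.50, adjusted p = 0.57). Neither passed the test. The 5 mature markers summed to 6540 and 17232 CPM in siCont and 9778 and 11850 CPM in siFXR1-LNA. The 5 markers of immature neutrophils (Ngp, Camp, Ltf, Lcn2 and Chil3) summed to 721 and 2026 CPM in siCont and 11342 and 18262 CPM in siFXR1-LNA, above the mature sum in both siFXR1-LNA libraries, with most of it from Lcn2 and Chil3. In siFXR1-LNA the label mature thus rests on the rule and not on the balance of these lists.

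Markers of other cells were present, most of all those of red cells. The 5 B cell markers summed to 9.52 to 41.4 CPM, with Cd79a at 0 by the rule, against 2980 to 5758 CPM in B cells, which Cd79a defines. The 7 macrophage markers summed to 874 and 365 CPM in siCont and 519 and 974 CPM in siFXR1-LNA, 0.311 to 0.715 times the sum in B cells, with C1qa and C1qb at 0 by the rule. T cell and natural killer cell markers summed to 50.6 CPM or less in every library, with Cd3e at 0 by the rule and Ncr1 at 0. The 5 erythroid markers took 194085 and 190380 CPM in siCont and 69224 and 35411 in siFXR1-LNA, 0.925 to 1.27 times their sum in B cells. The 5 mast cell and basophil markers summed to 507 and 351 CPM in siCont and 70.9 and 68.2 CPM in siFXR1-LNA, 1.26 to 2.28 times their sum in B cells. The 5 monocyte markers summed to 477, 364, 279 and 539 CPM in the same order. This was 1.27 to 2.77 times their sum in B cells, and the rule has no condition against monocytes. Epithelial or mesothelial markers had 1131, 258, 811 and 550 CPM, and fibroblast markers 251, 64.5, 640 and 243 CPM. Platelet markers had 85.6, 207, 253 and 335 CPM. Dendritic cell and eosinophil markers summed to 43.0 CPM or less. In the summed counts the erythroid and mast cell markers thus moved with the groups. With hemoglobin genes, mt- genes and genes of the rule left out of the edgeR fit, 40 genes were higher and 116 lower, against 56 and 146 in the main fit below. The part of mast cell RNA and of other red cell RNA in the results below was not tested.

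Of 9889 genes tested across the summed counts, 56 (0.566%) were higher and 146 (1.48%) lower in the libraries labelled siFXR1-LNA (edgeR quasi-likelihood test, Benjamini-Hochberg adjusted p under 0.05, the 19 genes of the rule and mt- genes not counted). The median log2 difference over all genes tested was 0.06. In either direction this was 2.04% of the genes. At an unadjusted p under 0.05 there were 660 higher and 791 lower. The libraries of the groups did not overlap for 46.2% of the genes tested, with both siFXR1-LNA libraries above for 30.3% and below for 15.8%. Without siCont replicate 1, siCont replicate 2, siFXR1-LNA replicate 1 or siFXR1-LNA replicate 2, the counts were 556, 140, 35 and 34 higher and 678, 161, 36 and 52 lower. The remaining library of the shortened group was then assumed to vary like the others.

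RNA that floats free in the droplets also gives UMIs to neutrophils, and B cells of the same library were used as a gauge. Of the 56 higher genes, 19 (33.9%) had at least 3 times their B cell CPM in both siFXR1-LNA libraries, which 4.7% of all genes tested did. Of the 146 lower genes, 55 (37.7%) had at least 3 times their B cell CPM in both siCont libraries, which 6.7% of all genes tested did. Called genes are high in the group looked at by their selection, so nothing is read from these shares against those of all genes. The B cell level is given beside the genes below where it is near that of the neutrophils. B cells express some of these genes themselves, so their level is not a gauge of free RNA alone.

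The broadest change was lower RNA of type I interferon-stimulated genes, the antiviral program that interferon receptors switch on. Of 27 genes of this list tested, 17 fell (63.0%, against 1.48% of all genes), none rose, and the other 10 did not pass the test. The list's median log2 difference was -2.75, and in 25 of the 27 genes both siFXR1-LNA libraries were below both siCont libraries, which was so for 15.8% of all genes tested. Without siFXR1-LNA replicate 1 or 2, 11 and 12 genes of the list were called.

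The Ifit genes, which encode RNA-binding proteins that block translation of viral RNA, lie side by side on chromosome 19. Ifit1 (34640871 to 34650009, GRCm38) had 189 and 81.3 CPM in siCont and 1.55 and 4.44 CPM in siFXR1-LNA, a log2 difference of -5.49 (SE 0.57, adjusted p = 0.00060). Its neighbour Ifit3 (34583531 to 34588731) had 287 and 90.6 CPM in siCont and 1.55 and 2.22 CPM in siFXR1-LNA, where the values rest on 6 and 7 UMIs. Ifit3b (34607970 to 34613401) had 189, 104, 1.03 and 1.27 CPM, the steepest fall of the list at -6.97 (SE 0.53, adjusted p = 7.8e-05). Both siFXR1-LNA libraries were low for each of these genes and no library overlapped. Ifit3 and Ifit3b are near-identical copies, so how their reads were split is uncertain. Ifit2 fell by 2.81 (adjusted p = 0.021), a call that was lost without siFXR1-LNA replicate 2 (adjusted p = 0.22).

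Other antiviral effectors fell too. Isg15, a ubiquitin-like protein that is attached to other proteins, had 807 and 312 CPM in siCont and 52.1 and 54.6 CPM in siFXR1-LNA (log2 difference -3.42, SE 0.49, adjusted p = 0.0030). The oligoadenylate synthetase-like genes Oasl1 and Oasl2 fell by 4.13 and 3.73. Rsad2, which encodes viperin, had 269, 170, 37.9 and 30.8 CPM and fell by 2.75 (adjusted p = 0.0040), but did not pass without siFXR1-LNA replicate 1 or 2 (adjusted p = 0.097 and 0.15). Usp18 and Herc6, which remove and attach Isg15, fell by 2.58 and 3.20, and Irf7, the transcription factor that amplifies the response, fell by 3.59. The siCont levels of Irf7 (189 and 96.7 CPM) stood beside 95.4 and 112 CPM in B cells of the same libraries. Usp18 did not pass without siFXR1-LNA replicate 1 or 2 (adjusted p = 0.30 and 0.052).

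Slfn4, a Schlafen gene of myeloid cells, was the clearest of the list against B cells. It had 709 and 774 CPM in siCont and 115 and 177 CPM in siFXR1-LNA, while B cells had 5.89 to 10.9 CPM. Its log2 difference was -2.48 (SE 0.45, adjusted p = 0.013), and the call was lost without siFXR1-LNA replicate 1 (adjusted p = 0.39) or replicate 2 (adjusted p = 0.059). Genes of the same program also had lower values outside neutrophils. Isg15 had 292 and 404 CPM in siCont macrophages and 40.2 and 41.7 CPM in siFXR1-LNA macrophages, and 163, 116, 28.2 and 35.4 CPM in B cells.

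**Figure D2:**
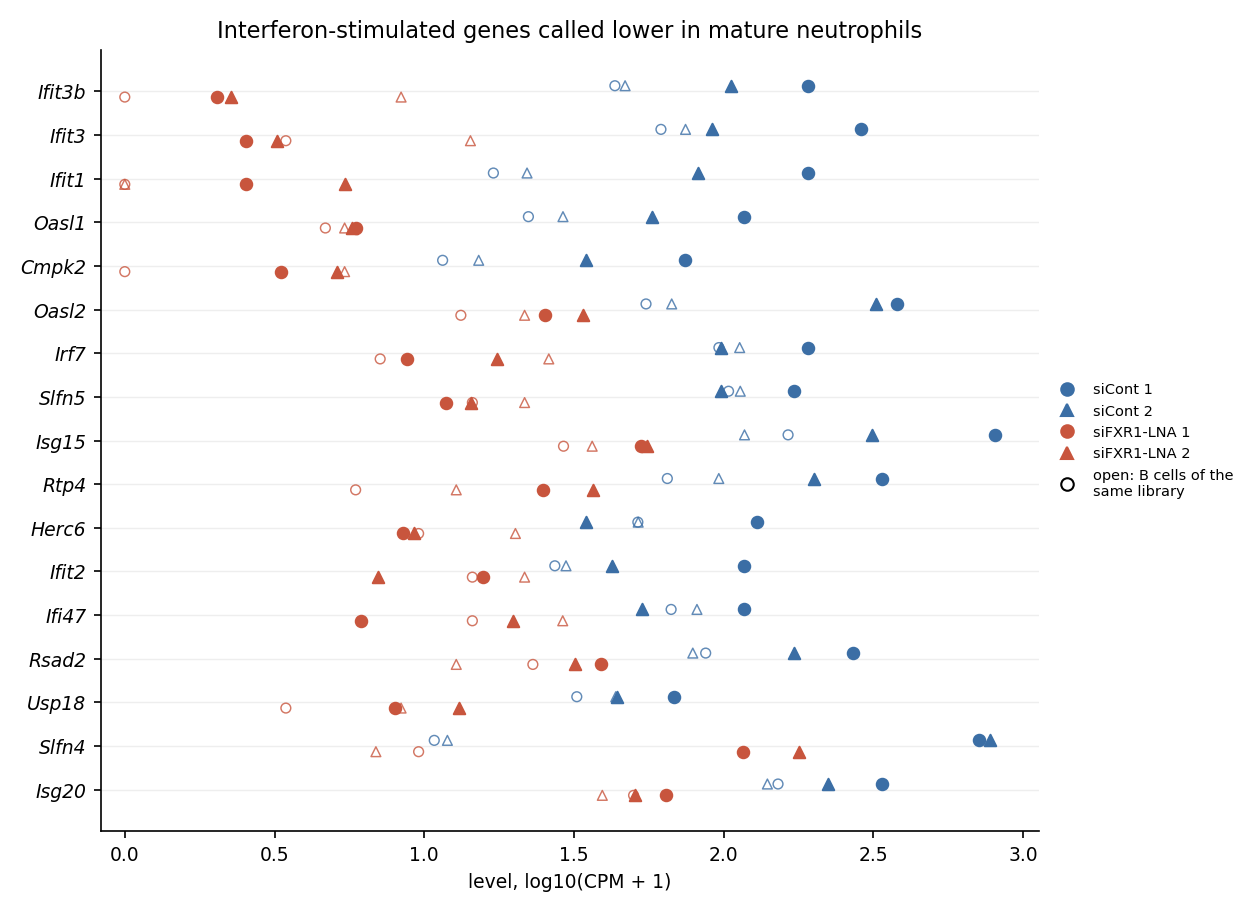
Levels of the 17 interferon-stimulated genes called lower, as log10(CPM + 1), in mature neutrophils (filled) and in B cells of the same library (open), blue for siCont and red for siFXR1-LNA, circles for replicate 1 and triangles for replicate 2. For all 17 genes both filled red points lie left of both filled blue points, and Slfn4 is the gene with the widest gap between neutrophils and B cells.

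The interferon-stimulated RNA was also counted cell by cell. With every cell at 500 UMIs, 23 genes of the list (without the Ifitm genes) were summed. No UMI of them was found in 20.9% and 33.0% of mature neutrophils in siCont and in 67.4% and 56.9% in siFXR1-LNA. At least 5 UMIs were found in 22 of 86 cells (25.6%) and 33 of 333 cells (9.91%) in siCont, against 2 of 1796 (0.111%) and 8 of 1340 (0.597%) in siFXR1-LNA. The highest cell had 22 and 31 UMIs in the siCont libraries and 6 in each siFXR1-LNA library. The tenth of cells with most held 43.2% and 49.3% of these UMIs in siCont and 44.9% and 41.6% in siFXR1-LNA. This share depends on the UMIs per cell, and these differed. In siCont, 86 and 333 cells held 292 and 680 UMIs, and in siFXR1-LNA 1796 and 1340 cells held 737 and 824. How unevenly the UMIs were spread is therefore not compared between the groups. Cells with 5 or more thus took a larger share of the mature neutrophils in both siCont libraries than in either siFXR1-LNA library, and stood beside siCont cells with none.

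**Figure D3:**
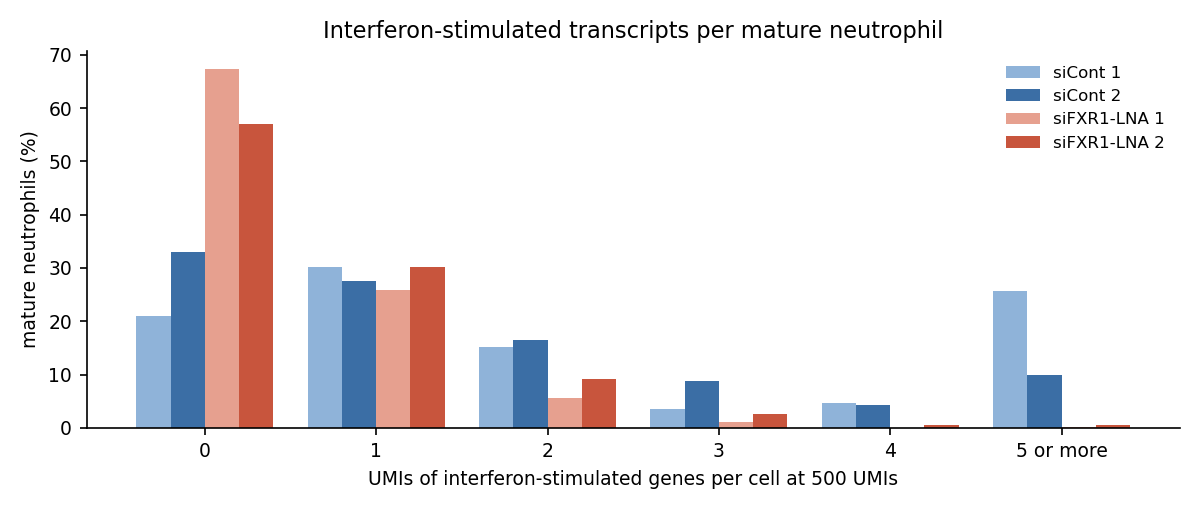
Share of mature neutrophils (%) by the number of UMIs of 23 interferon-stimulated genes in a cell thinned to 500 UMIs, blue bars for siCont and red bars for siFXR1-LNA. Cells with 5 or more were 25.6% and 9.91% in siCont and 0.111% and 0.597% in siFXR1-LNA.

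Promoters of these genes were searched on either strand for the core of the interferon-stimulated response element, where interferon regulatory factors bind (GAAA, any 2 bases, GAAA). RefSeq windows from 250 bases before to 50 after a gene's start were used. The letters were found in 25 of the 115 lower genes with a window (21.7%), in 3 of the 42 higher genes (7.14%) and in 4.17% of all genes tested. Within the interferon-stimulated list they were found in 6 of 15 lower genes and in 6 of 9 genes that did not pass, so the share was not higher among the called genes. Windows around them are shown for genes with steep falls, with 1 match of the motif, or of its reverse complement, in capitals. Isg15 holds 3 overlapping matches in this stretch, of which the middle one is in capitals. Ifit3 and Ifit3b are shown together because both windows hold the same letters. They lie at chr19:34640775-34640804 (Ifit1, plus strand), chr19:34583363-34583392 (Ifit3, plus), chr19:34607759-34607788 (Ifit3b, plus) and chr4:156200871-156200900 (Isg15, minus), GRCm38.p6.
Ifit1: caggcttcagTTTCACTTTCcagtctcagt
Ifit3: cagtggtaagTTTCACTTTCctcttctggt
Ifit3b: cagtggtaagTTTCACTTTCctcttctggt
Isg15: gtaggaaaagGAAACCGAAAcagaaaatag

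Some chemokines rose in the libraries labelled siFXR1-LNA and others fell. Of 17 cytokine and chemokine genes tested, 4 rose (Ccl3, Cxcl2, Cxcl3 and Il1a; 23.5%, against 0.566% of all genes) 2 fell (Ccl6 and Tnfsf14; 11.8%, against 1.48%) and 11 did not pass, with a median log2 difference of 0.60. Ccl3 (chromosome 11, 83647844 to 83649355), a chemokine that attracts leukocytes, had 24.4 and 13.8 CPM in siCont and 358 and 655 CPM in siFXR1-LNA. This was a log2 difference of 4.74 (SE 0.58, adjusted p = 0.0017), and it passed under all 14 alternatives. Its neighbour Ccl4 had 48.9, 33.8, 106 and 191 CPM, with a log2 difference of 1.78 that did not pass (adjusted p = 0.087).

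Cxcl2 and Cxcl3 are ligands of Cxcr2 that draw in further neutrophils. Cxcl2 (chromosome 5, 90903871 to 90905938) had 134 and 543 CPM in siCont and 2702 and 4897 CPM in siFXR1-LNA, a log2 difference of 3.23 (SE 0.66, adjusted p = 0.026). Cxcl3 had 0 and 75.2 CPM in siCont and 402 and 623 CPM in siFXR1-LNA (log2 difference 3.21, SE 0.76, adjusted p = 0.048). Cxcl2 did not pass in cells with at least 800 genes (adjusted p = 0.094) or with up to 1 UMI of the excluded lineage genes (0.063), and Cxcl3 did not pass under 4 of 14 alternatives, among them DESeq2 (adjusted p = 1.0). For both genes both siFXR1-LNA libraries were above both siCont libraries, as for 30.3% of all genes tested. The siFXR1-LNA neutrophils had 8.14 and 10.9 times the Cxcl2 CPM of B cells. Il1a had no UMI in siCont and 17.0 and 28.2 CPM in siFXR1-LNA, at least 6.15-fold higher against a floor of 3 counts over the siCont group (3.68 CPM). Its call was lost under 8 of the 13 alternatives, among them without siCont replicate 2 and without siFXR1-LNA replicate 1 or 2 (adjusted p = 0.12, 0.26 and 0.88).

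Other cytokines of the list did not pass or fell. Il1b, the main secreted interleukin-1 of neutrophils, had 703 and 849 CPM in siCont and 714 and 1183 CPM in siFXR1-LNA (log2 difference 0.15, SE 0.44, adjusted p = 0.92). Tnf had 48.9, 27.6, 40.7 and 80.0 CPM (adjusted p = 0.60). The chemokine Ccl6 fell from 1424 and 1872 CPM to 343 and 478 CPM (log2 difference -2.15, SE 0.45, adjusted p = 0.030), and did not pass without siFXR1-LNA replicate 1 or 2 (adjusted p = 0.51 and 0.089). Tnfsf14, which encodes LIGHT, had 42.8, 55.3, 5.16 and 13.3 CPM and fell by 2.65 (adjusted p = 0.029), but not without siCont replicate 2 or siFXR1-LNA replicate 1 (adjusted p = 0.12 and 0.40).

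Both rising Cxcr2 ligands hold a form of the NF-kB site (GGGA, any base, TTTCC, either strand) in the promoter window. These letters were found in 0.520% of all genes tested, in 3 of 42 higher genes (Cxcl2, Cxcl3 and Ms4a4a) and in 1 of 115 lower genes (Gbp5). In the cytokine and NF-kB lists they were also found in Cxcl1, Nfkbia, Nfkb2 and Csf1, which did not pass the test. The windows are shown for the pair, with the motif in capitals, at chr5:90903792-90903821 (Cxcl2) and chr5:90786018-90786047 (Cxcl3), plus strand, GRCm38.p6.
Cxcl2: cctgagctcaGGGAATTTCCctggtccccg
Cxcl3: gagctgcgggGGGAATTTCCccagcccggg

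Regulators of these signals followed the same direction in part. Irak3, an inhibitor of Toll-like receptor signalling, had 18.3 and 56.8 CPM in siCont and 325 and 495 CPM in siFXR1-LNA (log2 difference 3.06, SE 0.56, adjusted p = 0.013). It was the only gene of 17 in the pattern recognition and inflammasome list that passed (5.88% higher, against 0.566% of all genes). Of 16 NF-kB feedback genes tested, 1 rose: Tnfaip3, which encodes the deubiquitinase A20, with 12.2, 23, 102 and 161 CPM (log2 difference 2.53, SE 0.52, adjusted p = 0.028). This was 6.25% of the list, against 0.566% of all genes. Its adjusted p was 0.23 without siFXR1-LNA replicate 2, 0.16 in cells with at least 800 genes and 0.067 with up to 1 UMI of the excluded lineage genes. Nfkbia had 189, 319, 690 and 1239 CPM and did not pass (adjusted p = 0.11). Ikbke, an IkB kinase, rose by 3.57 (adjusted p = 0.0030), from 30.6 and 18.4 CPM to 259 and 332 CPM.

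Of 18 immediate early genes tested, 2 rose (11.1%, against 0.566% of all genes), the zinc finger factors Egr1 and Egr3. Egr1 had 6.11 and 9.21 CPM in siCont and 137 and 232 CPM in siFXR1-LNA (log2 difference 4.25, SE 0.60, adjusted p = 0.0030). Its siCont levels lay near the floor of 3 counts over the siCont group (3.68 CPM). Egr3 had no UMI in siCont and 25.8 and 25.1 CPM in siFXR1-LNA, at least 6.91-fold higher, and the call did not hold without siCont replicate 2 (adjusted p = 0.086) or without siFXR1-LNA replicate 1 or 2 (adjusted p = 0.48 and 0.31). Fos and Junb did not pass, with log2 differences of 1.18 and -0.09.

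**Figure D4:**
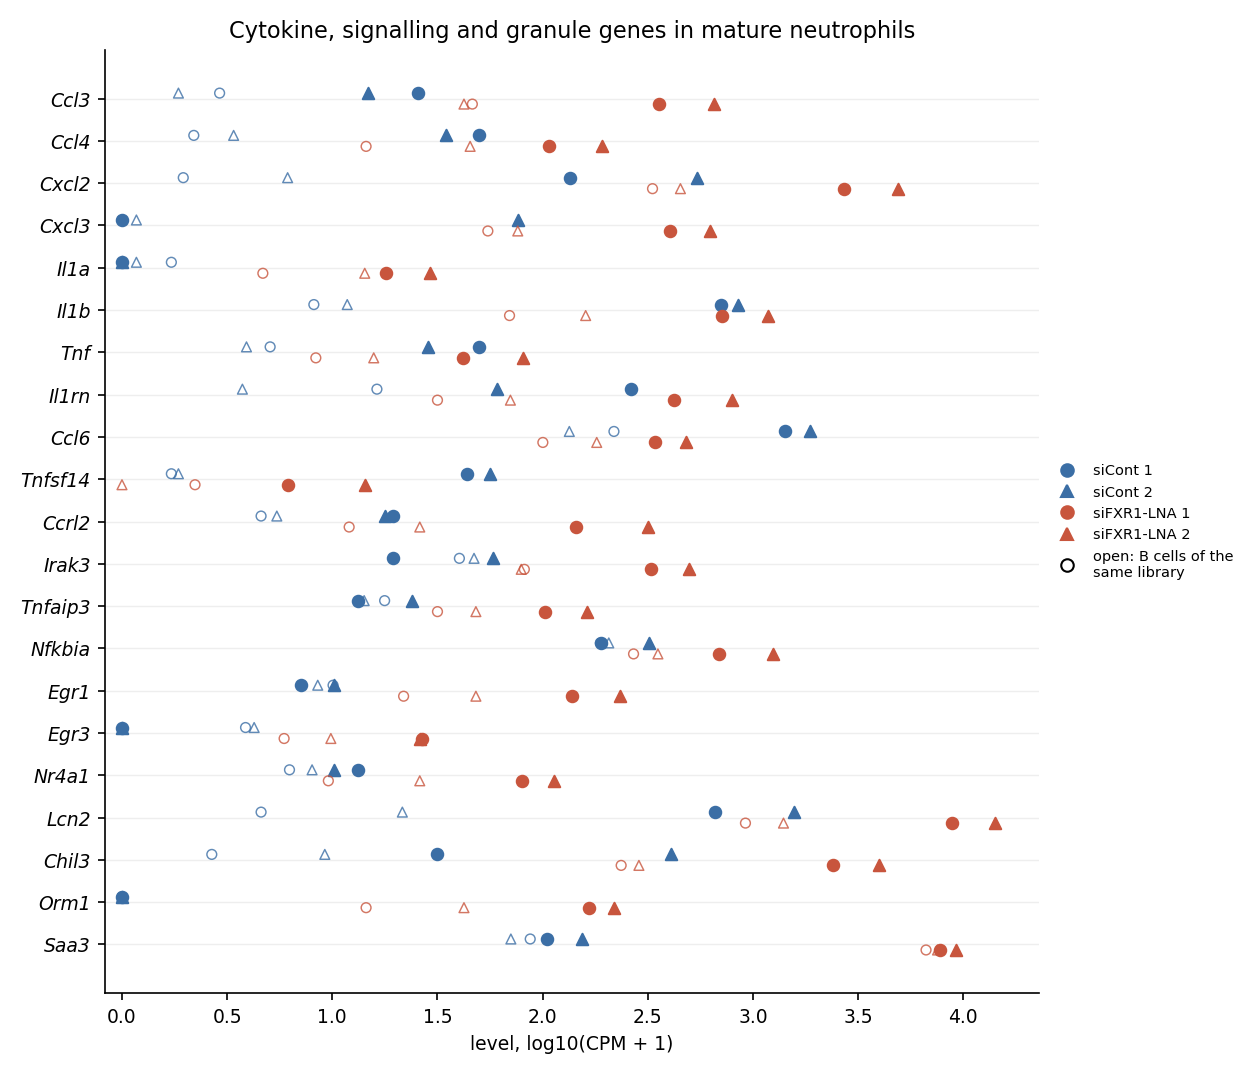
Levels of cytokine, signalling and granule genes, as log10(CPM + 1), in mature neutrophils (filled) and in B cells of the same library (open), blue for siCont and red for siFXR1-LNA, circles for replicate 1 and triangles for replicate 2. For Ccl3, Cxcl2 and Lcn2 both filled red points lie right of all other points, while Saa3 is as high in B cells as in neutrophils.

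Ccl3 and Ccl4 were detected in part of the cells, and at this depth a cell without a UMI may still express them. At 500 UMIs per cell, a UMI of either was found in 4 of 86 and 8 of 333 mature neutrophils in siCont (4.65% and 2.40%) and in 280 of 1796 and 295 of 1340 in siFXR1-LNA (15.6% and 22%). The Ccl3 share alone was 13.3% and 19.7% of mature neutrophils in siFXR1-LNA and 0.962% and 1.69% of B cells there. In siFXR1-LNA replicate 1, cells with a Ccl3 or Ccl4 UMI had 4443 CPM of Cxcl2 and 4571 CPM of Retnlg, against 2369 and 6827 CPM in cells without. In replicate 2 the values were 7166 and 4725 CPM with, and 4295 and 7106 CPM without. Cells of 1 library are not replicates, so this is a description of both siFXR1-LNA libraries, in each of which the chemokine-positive cells had more Cxcl2 and less Retnlg. Retnlg is a gene of the rule, so its level among members depends on how they were chosen. In siCont the 4 and 8 chemokine-positive cells had less Cxcl2 (0 and 250 CPM) than the cells without (146 and 689 CPM).

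Granule genes are taken here by stage. In neutrophils the specific granule proteins are made before the gelatinase granule proteins. Of 9 specific granule genes tested, 3 rose (Lcn2, Chil3 and Orm1; 33.3%, against 0.566% of all genes) and none fell, with a median of 0.65 for the list. Lcn2, which encodes the iron-siderophore binding protein lipocalin 2, had 660 and 1559 CPM in siCont and 8855 and 14192 CPM in siFXR1-LNA (log2 difference 3.18, SE 0.57, adjusted p = 0.013). It was found in 22.1% and 36.6% of cells in siCont and 88.6% and 93.5% in siFXR1-LNA at 500 UMIs, and in 21.8% and 24.6% of B cells in siFXR1-LNA. In cells with at least 800 genes Lcn2 did not pass (adjusted p = 0.095).

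Chil3, a chitinase-like protein, had 30.6 and 408 CPM in siCont and 2392 and 3977 CPM in siFXR1-LNA (log2 difference 3.52, SE 0.82, adjusted p = 0.046), and passed under 9 of 14 alternatives. Orm1, the acute-phase protein orosomucoid 1, had no UMI in siCont and 164 and 217 CPM in siFXR1-LNA, at least 51.8-fold higher, with B cells at 13.5 and 41.3 CPM there. Mmp8, the neutrophil collagenase, is a specific granule gene too. It had 97.8, 459, 377 and 681 CPM, with overlapping groups, and did not pass (log2 difference 0.65, adjusted p = 0.70). List medians are the same with Orm1, Il1a and Egr3 set at these bounds, since the bounds lie above the medians.

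Of 3 primary granule genes tested, 1 fell (33.3%, against 1.48% of all genes). This was Prtn3, which fell by 1.91 (adjusted p = 0.033), from 85.6 and 72.1 CPM to 18.8 and 26.7 CPM, with 128 and 181 CPM in siCont macrophages. It did not pass without siCont replicate 2 or siFXR1-LNA replicate 1 or 2 (adjusted p = 0.051, 0.87 and 0.32). Mature neutrophils with no UMI of Ngp, Camp and Ltf were 95.3% and 93.4% in siCont and 87.3% and 84.9% in siFXR1-LNA. These are genes of the rule, and a deeper cell more readily holds a UMI of them. Depth differed between the groups, so nothing is read from this difference. In siFXR1-LNA replicate 2, cells with 1 to 4 such UMIs had 11351 CPM of Retnlg, against 6209 CPM in cells with none. Retnlg is a gene of the rule too, and the former cells were deeper (median 2463 against 2053 UMIs). Cells with at least 5 such UMIs, the immature neutrophils, were 5, 27, 88 and 84. Mature cells made up 94.5%, 92.5%, 95.3% and 94.1% of all neutrophils, and the means differed by 1.21 percentage points (exact permutation p = 0.667, n = 2 per group). With mature cells limited to no such UMI the difference was -7.73 points, and in cells with at least 800 genes it was 7.70 points. With every cell thinned to 500 UMIs it was 3.48 points.

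Few genes of late maturation passed the test. Of 9 tested in the gelatinase granule and late maturation list, 2 fell (Cd101 and Prok2; 22.2%, against 1.48% of all genes). None rose, and the list median was -0.83. Cd101, an inhibitory surface protein of mature neutrophils, had 122 and 121 CPM in siCont and 32.0 and 35.2 CPM in siFXR1-LNA (log2 difference -2.0, SE 0.39, adjusted p = 0.020). Prok2, a chemotactic peptide, had 12.2, 53.7, 6.45 and 7.61 CPM (log2 difference -2.71, adjusted p = 0.036). The groups did not overlap for either gene, and 15.8% of all genes tested had both siFXR1-LNA libraries below. Cd101 did not pass without siFXR1-LNA replicate 1 or 2 (adjusted p = 0.64 and 0.39), nor Prok2 without these or siCont replicate 2 (adjusted p = 0.27, 0.16 and 0.85). Mmp9, the gelatinase that names the granule, had 1094, 1202, 604 and 813 CPM and did not pass (adjusted p = 0.39).

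Ly6g, the surface protein by which mouse neutrophils are commonly sorted, had 91.7 and 238 CPM in siCont and 16.2 and 20.0 CPM in siFXR1-LNA. It fell by 3.46 (SE 0.53, adjusted p = 0.0043), passed under all 14 alternatives, and had 3.59 CPM or less in B cells. Among 12 chemokine and chemoattractant receptors tested, 1 fell (8.33%, against 1.48% of all genes) and 1 rose (8.33%, against 0.566%). Cxcr1, a receptor for Cxc chemokines, had 18.3 and 30.7 CPM in siCont and 1.81 and 2.54 CPM in siFXR1-LNA (log2 difference -3.80, SE 0.63, adjusted p = 0.0078), on 3, 20, 7 and 8 UMIs. Without siCont replicate 2 or siFXR1-LNA replicate 1 or 2 it did not pass (adjusted p = 0.327, 0.296 and 0.125). Ccrl2, which binds chemerin without signalling, rose from 18.3 and 16.9 CPM to 144 and 317 CPM (log2 difference 3.55, SE 0.58, adjusted p = 0.0077).

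Cxcr2, the receptor of Cxcl2 and the main recruitment receptor, had 452 and 1107 CPM in siCont and 162 and 230 CPM in siFXR1-LNA. Both siFXR1-LNA libraries were below both siCont libraries, as for 15.8% of all genes tested. The log2 difference of -2.20 (SE 0.53) narrowly missed the threshold (adjusted p = 0.056, edgeR) and passed under 7 of 14 alternatives. Csf3r lay in the same direction and is not tested, being a gene of the rule. Cxcr4, which holds neutrophils in the marrow, had 73.3, 52.2, 39.2 and 47.6 CPM (adjusted p = 0.53). Padi4, the enzyme that citrullinates histones when neutrophils release chromatin traps, had 30.6, 117, 14.2 and 24.4 CPM and fell by 2.33 (adjusted p = 0.048), with 228 and 239 CPM in siCont macrophages. This call was lost without siCont replicate 2 or siFXR1-LNA replicate 1 or 2 (adjusted p = 0.80, 0.61 and 0.11).

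**Figure D5:**
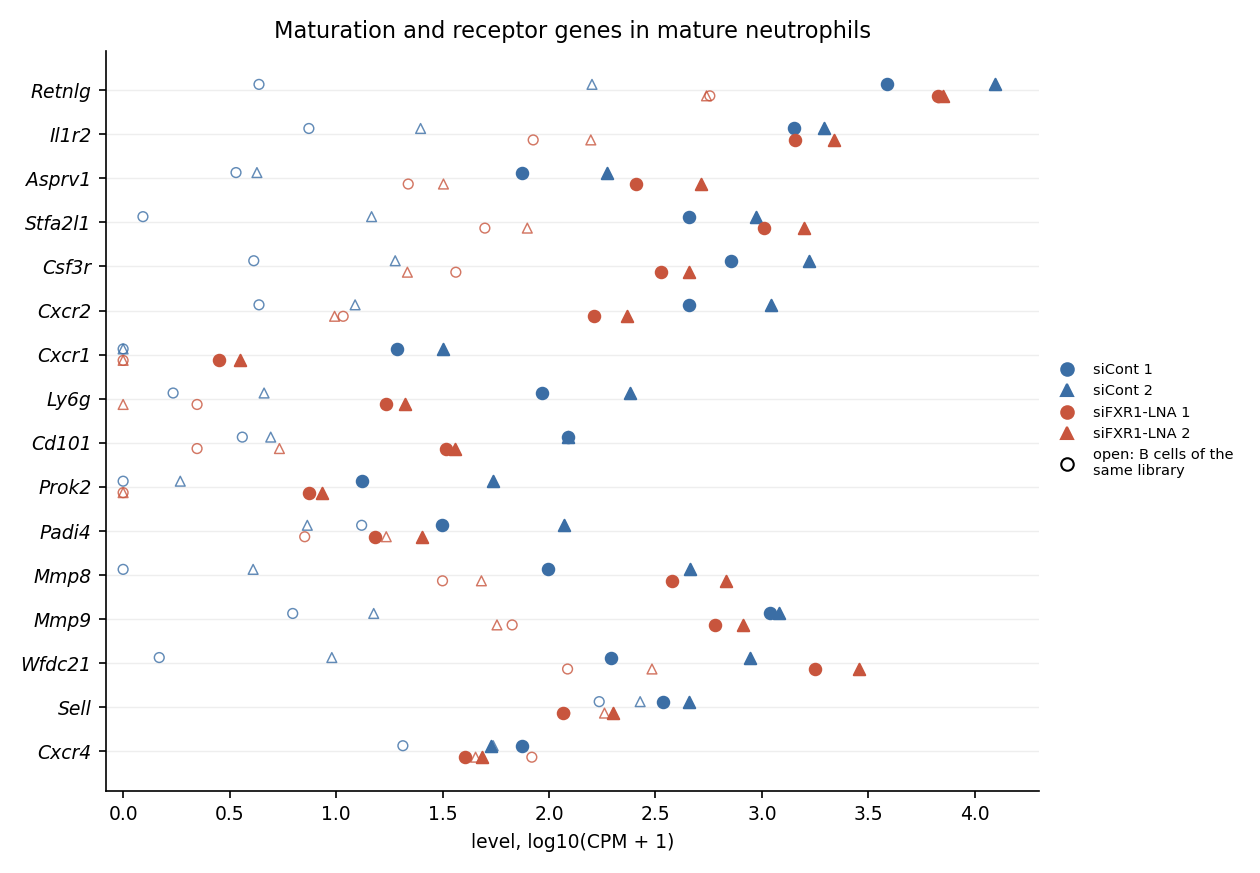
Levels of maturation and receptor genes, as log10(CPM + 1), in mature neutrophils (filled) and in B cells of the same library (open), blue for siCont and red for siFXR1-LNA, circles for replicate 1 and triangles for replicate 2. Retnlg and Il1r2 overlap between the groups, while Ly6g and Cxcr1 have both filled red points left of both filled blue points.

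Several genes with a large difference were also high in other cells of the library. Saa3, an acute-phase protein, had 104 and 153 CPM in siCont neutrophils and 7744 and 9269 CPM in siFXR1-LNA neutrophils (log2 difference 5.85, adjusted p = 0.00032). B cells had 6648 and 7541 CPM in the same siFXR1-LNA libraries, and macrophages 47012 and 45531 CPM. The metallothioneins Mt1 and Mt2 rose by a log2 difference of 3.15 and 5.31, with Mt2 at 185 and 175 CPM in neutrophils and 160 and 128 CPM in B cells of siFXR1-LNA. Arg1, which encodes arginase 1, had 327 and 400 CPM in siFXR1-LNA neutrophils and 327 and 326 CPM in B cells, and was the only 1 of 18 tumor-associated and suppressive genes that passed, though not without siFXR1-LNA replicate 1 or 2 (adjusted p = 0.073 and 0.14). The hypoxia gene Ndrg1 stood likewise, at 478 and 192 CPM beside 407 and 134 CPM in B cells, and was the only 1 of 30 hypoxia and glycolysis genes to pass, again not without siFXR1-LNA replicate 1 (adjusted p = 0.25). These calls of Arg1 and Ndrg1 were 5.56% and 3.33% of their lists, against 0.566% of all genes that were higher. For the genes of this paragraph, RNA of the neutrophils and free RNA cannot be told apart.

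The same held for several of the steepest falls. Mcpt4, Cma1, Cpa3 and Tpsb2, proteases of mast cells, fell by 5.23, 4.02, 3.94 and 3.79. Tpsb2 did not pass without siFXR1-LNA replicate 1 (adjusted p = 0.051). Mcpt4 had 532 and 224 CPM in siCont neutrophils and 340 and 124 CPM in siCont B cells. Ifi27l2a fell by 4.42, from 1754 and 626 CPM to 40.0 and 73.3 CPM, with 1173 and 1388 CPM in siCont B cells. Of 15 MHC class I and II genes tested, H2-Aa and H2-Eb1 fell (13.3%, against 1.48% of all genes). B cells of siCont had 3332 and 3709 CPM of H2-Aa against 477 and 399 CPM in siCont neutrophils. Neither gene passed without siFXR1-LNA replicate 1 or 2 (adjusted p = 0.40 to 0.72). Slfn5 fell by 3.51, with 171 and 96.7 CPM in siCont neutrophils and 103 and 113 CPM in B cells.

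The remaining genes with steep rises had different B cell levels. Aoah, which inactivates bacterial lipopolysaccharide, rose by a log2 difference of 5.30, from 12.2 and 4.60 CPM to 229 and 352 CPM, with 67.4 and 47.2 CPM in B cells of siFXR1-LNA. Dock10, a guanine nucleotide exchange factor, had 24.4 and 55.3 CPM in siCont and 622 and 960 CPM in siFXR1-LNA, a log2 difference of 3.98 (adjusted p = 0.0029). Pou2f2 (4.03) encodes a transcription factor that B cells also use, and its 101 and 138 CPM in siFXR1-LNA were below the 233 and 255 CPM of B cells. Klf9 rose by 3.49 to 152 and 163 CPM. Sod2, the mitochondrial superoxide dismutase, rose by 3.43 to 448 and 663 CPM, beside 189 and 200 CPM in B cells. Ptges, the prostaglandin E synthase, had no UMI in siCont and 28.6 and 42.5 CPM in siFXR1-LNA, at least 9.67-fold higher, with 24.5 and 22.1 CPM in B cells, and did not pass without siFXR1-LNA replicate 2 (adjusted p = 0.16).

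Several lists had no call, which says little beside the 2.04% called among all genes. None of 8 NADPH oxidase genes, 11 adhesion and migration genes, 10 S100 and stefin genes, 19 survival genes, 16 myeloid transcription factors, 13 cell cycle genes or 3 genes of the FXR1 family passed the test (edgeR). Ncf1, an oxidase subunit, had 373, 333, 257 and 345 CPM (log2 difference -0.35, SE 0.41). Mcl1, the survival factor of neutrophils, had 519, 959, 607 and 869 CPM (log2 difference -0.19, SE 0.47). Of 18 Fc and inhibitory receptors tested, 1 fell (5.56%, against 1.48% of all genes). This was Clec2d, with 165 and 135 CPM in siCont neutrophils and 173 and 164 CPM in siCont B cells. It did not pass without siFXR1-LNA replicate 1 or 2 (adjusted p = 1.0 and 0.40).

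The difference between the groups was itself compared between mature neutrophils and C1q macrophages of the same libraries (edgeR, with the library as a block). Of 14027 genes tested, 619 (4.41%) differed, 231 (1.65%) with a more positive and 388 (2.77%) with a more negative difference in neutrophils. Among the genes named above, Dock10, Ikbke, Pou2f2 and Aoah were more positive in neutrophils, by 3.68, 3.44, 5.45 and 3.22 on the log2 scale. Lcn2 was more negative, at -5.56, where macrophages had 3.4 and 8.17 CPM in siCont and 2403 and 2698 CPM in siFXR1-LNA. The 7 neutrophil markers summed to 113 and 246 CPM in siCont macrophages and 904 and 1022 CPM in siFXR1-LNA macrophages. The part of free neutrophil RNA in the macrophage values was not tested. Without siCont replicate 1, siCont replicate 2, siFXR1-LNA replicate 1 or siFXR1-LNA replicate 2, 1622, 180, 66 and 64 genes differed.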

How the data were processed

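The authors deposited, for each of 4 libraries, a table of whole UMI counts, not normalized, with genes against barcodes. It came from Cell Ranger (7.0.0 in the submitters' processing notes) on mouse mm10. Library totals were 78179267 to 113606837 UMIs. Members and gene lists were chosen with earlier results of these data known. Cells were selected by the rule given above, and counts summed per library and given as CPM. Sums were compared with the quasi-likelihood test of edgeR 4.0.16 (R 4.3.3), after filterByExpr and TMM scaling and with each library as a replicate. Adjusted p (Benjamini-Hochberg) under 0.05 was a call. The p-values measure the spread between 2 pools per group. For shares, an exact permutation test over libraries was used (two-sided). Named genes are the 5 markers, the 12 steepest rises and 12 steepest falls among genes past the threshold with at least 50 CPM on average and no overlap of groups, members of the lists, and the 5 largest differences from macrophages in each direction. Others were named after their values were seen. Alternatives included DESeq2 1.42.0, other normalization and filters, stricter cell limits and each library left out. Coordinates are from GENCODE vM21, which held 32158 of 32285 identifiers, and promoters from RefSeq without chromosome 18. Mx1, Clec7a, BC100530, Aldoa and Ero1a were not analysed here. The authors state that 1 siFXR1-LNA replicate was left out of their analysis, and both are used here.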

Additional observations from a re-analysis of the deposited data

Results flagged for a closer look

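Differences between the groups were compared between mature neutrophils and C1q macrophages (at least 2 UMIs of C1q genes) of the same libraries, with the library as a block in edgeR. The 5 largest in each direction by the limits for named genes are given here, and each was flagged because the group difference of neutrophils differed from that of macrophages.

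More positive in neutrophils were Pou2f2 (log2 difference of differences 5.45), Nr4a1 (4.14), Dock10 (3.68), Ikbke (3.44) and Aoah (3.22). Nr4a1, an immediate early nuclear receptor, had 12.2, 9.21, 78.7 and 112 CPM in neutrophils and 9.91, 21.6, 7.52 and 9.98 CPM in macrophages, in the order siCont replicates 1 and 2, siFXR1-LNA replicates 1 and 2. Dock10 had 150, 220, 209 and 251 CPM in macrophages, and Ikbke 48.2, 74.8, 64.8 and 84.6 CPM.

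More negative in neutrophils were Ly6g (-8.45), Nos2 (-8.30), Lcn2 (-5.56), Mmp8 (-4.96) and Tarm1 (-4.86). Lcn2 rose in neutrophils, and macrophages had 3.4, 8.17, 2403 and 2698 CPM. Nos2, the inducible nitric oxide synthase, had 0, 38.4, 104 and 122 CPM in neutrophils and 0.174, 0.121, 266 and 245 CPM in macrophages. Ly6g had no UMI in siCont macrophages, so its value depends on the prior count of the fit and is no bound. The part of free neutrophil RNA in the macrophage values of Lcn2, Mmp8 and Tarm1 was not tested.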

How the results depend on the processing

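Higher and lower genes numbered 56 and 146, and 46 and 92 with DESeq2, 220 and 271 without a filter on low counts, 334 and 425 with the replicate number as a block, 29 and 85 in cells with at least 800 genes, 173 and 245 without UMIs of 10 other lineage genes (4186 genes tested), and 34 to 556 and 36 to 678 with 1 library left out. With hemoglobin genes, mt- genes and genes of the rule left out, they numbered 40 and 116. The deviations of same-numbered libraries from their group means had a correlation of 0.35. With 2 libraries per group this is 1 value, the same for both numbers by construction, and it does not establish a pairing. Chosen after seeing the data, at least 3 times the B cell level left 19 and 55, a limit of 10 UMIs of Retnlg, Il1r2 and Csf3r gave 58 and 128, and up to 1 UMI of C1qa, C1qb, Cd79a and Cd3e gave 45 and 109. The genes that differed from macrophages numbered 369 at 800 genes per cell and 64 to 1622 with 1 library left out. The difference in mature share of neutrophils, 1.21 percentage points, was -7.73 with a limit of 1 UMI of Ngp, Camp and Ltf, and 3.48 with cells thinned to 500 UMIs. The difference in share of kept cells, 3.88 percentage points, was 8.84 at 800 genes per cell, and an exact permutation within replicate numbers gave p = 0.5 for 3.88. The median log2 difference over all genes was 0.06, and -0.25 with DESeq2 and 0.35 without a filter, both over more genes. Of 820 values for 59 named genes, 724 kept their side of the threshold, 94 no longer passed, 2 newly passed (Asprv1, with the replicate block and without siCont replicate 2) and 0 changed sign. The comparison with immature neutrophils was not run, since siCont replicate 1 held 5 such cells. The 86 cells of siCont replicate 1 limit every comparison.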

Other observations

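Immature neutrophils (at least 5 UMIs of Ngp, Camp and Ltf) were too few for a test in siCont replicate 1 and are given as values. Their Lcn2 level was 12930 CPM in siCont replicate 2, and 10158 and 16772 CPM for siFXR1-LNA replicates 1 and 2.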
